A study of Mus musculus with 6 samples.

Results

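The Dmkn Sbsn Krtdap fibroblasts were 3697 cells of 63647 cell barcodes from single-cell RNA sequencing of lower abdominal muscle of 6 male FVB/N mice. They were chosen by position and by 4 genes: in the deposited count table the columns of the 6 mice recur in 30 successive blocks (6 runs of columns each), and members were the barcodes of the eighth block with at least 1000 unique molecular identifiers (UMIs, each standing for one captured RNA molecule), at most 10% of UMIs in mitochondrial genes, a UMI of at least 2 of Dmkn, Sbsn and Krtdap, and no UMI of the mesothelial gene Upk3b. The mice were 9 to 10 weeks old and formed 2 groups of 3, wild-type (WT) littermates and Aromhum mice. Aromhum mice carry the human aromatase gene CYP19A1 under its own human promoters, so that the transgene is not driven in one cell type alone, and the males develop scrotal hernias. The muscle was minced and digested with collagenase and dispase before single cells were captured. The comparison asked how these fibroblasts differed between muscle with and without human aromatase, and each mouse was 1 replicate.

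Aromatase converts androgens to estrogens, and fibroblasts of the abdominal wall respond to estrogen through nuclear receptors. Dmkn (dermokine), Sbsn (suprabasin) and Krtdap (keratinocyte differentiation associated protein) are secreted proteins best known from the upper layers of the epidermis. Connective tissue also holds a fibroblast state in the fascia and the adventitia of vessels, marked by Pi16, Dpp4 and Cd55, which is described as a progenitor of other fibroblasts, and in which skin-type secreted genes can be active.

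The 3 genes that chose the members lie side by side on the plus strand of chromosome 7 (GRCm38, the sequence of mm10). Sbsn spans chr7:30751471-30756134, Dmkn chr7:30763756-30781063 and Krtdap chr7:30787896-30791097 in the GENCODE annotation, all protein-coding, with 7622 bases between the first 2 genes and 6833 bases between the last 2. Of the 16 protein-coding genes next to this 39627-base stretch, 8 on either side, 8 were in the table. Only Rbm42, Tmem147 and Usf2 of these were at 10 CPM (UMI counts scaled to a total of 1000000 per mouse and cell group) or more in members, and they were close to their level in other cells of the same columns (Rbm42 47.6 against 50.3 CPM, Tmem147 70.1 against 63.7 CPM, Usf2 43 against 38.2 CPM). Among the 11 genes of this stretch and its surroundings that were in the table, only the trio, which the rule used, stood far above other cells.

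The start regions of the trio are shown because the 3 genes were chosen for being detected together. Each RefSeq window (GRCm38.p6, plus strand) runs from 250 bases before a transcription start to 50 bases after it, and capitals mark the letters TGAGTCA, the site recognised by AP-1 factors, searched on both strands together with its reverse complement TGACTCA. Dmkn has a second start inside the gene, shown last. The windows are Sbsn chr7:30751221-30751520, Dmkn chr7:30763506-30763805, Krtdap chr7:30787655-30787954 and the internal Dmkn start chr7:30776155-30776454.
Sbsn: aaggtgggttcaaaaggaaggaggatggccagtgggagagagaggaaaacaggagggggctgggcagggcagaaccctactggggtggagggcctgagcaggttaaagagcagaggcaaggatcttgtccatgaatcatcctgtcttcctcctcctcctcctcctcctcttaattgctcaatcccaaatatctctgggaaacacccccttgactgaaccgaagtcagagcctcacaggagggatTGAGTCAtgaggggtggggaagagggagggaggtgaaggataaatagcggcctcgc
Dmkn: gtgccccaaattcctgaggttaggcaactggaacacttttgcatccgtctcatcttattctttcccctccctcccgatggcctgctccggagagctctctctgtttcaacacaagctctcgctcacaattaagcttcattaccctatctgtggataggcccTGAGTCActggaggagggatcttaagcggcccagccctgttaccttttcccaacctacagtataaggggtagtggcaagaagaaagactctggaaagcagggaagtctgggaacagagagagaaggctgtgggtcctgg
Krtdap: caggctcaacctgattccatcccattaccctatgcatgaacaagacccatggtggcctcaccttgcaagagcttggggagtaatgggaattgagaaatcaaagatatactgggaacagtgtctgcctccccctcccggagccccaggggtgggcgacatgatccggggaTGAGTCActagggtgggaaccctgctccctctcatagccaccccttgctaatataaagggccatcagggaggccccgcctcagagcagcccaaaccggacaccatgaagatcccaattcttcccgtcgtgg
Dmkn, internal start: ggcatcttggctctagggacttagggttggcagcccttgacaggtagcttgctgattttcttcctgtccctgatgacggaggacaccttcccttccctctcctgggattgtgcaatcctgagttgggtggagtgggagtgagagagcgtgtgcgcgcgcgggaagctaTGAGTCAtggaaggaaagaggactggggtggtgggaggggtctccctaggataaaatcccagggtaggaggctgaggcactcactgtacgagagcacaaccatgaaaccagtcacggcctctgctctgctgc
All 4 windows held the AP-1 letters once, beginning 6, 89, 81 and 82 bases before the start. Of 32817 windows of the same length over the genome, 1708 (5.20%) held them. The Krtdap window alone held TATAAA, 30 bases before its start, a match found in 13.6% of all windows. No window of Krt23, Akr1c18 or Efemp1, the other genes that name these cells, held either. A match is a description of these letters only.

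The rule took 3697 of 15700 barcodes of the eighth block that passed the depth and mitochondrial limits (23.5%). The same markers took 546 of 37743 barcodes (1.45%) in the other 29 blocks, so 87.1% of the 4243 barcodes with this marker pattern lay in the eighth. Members numbered 445, 169 and 111 in WT replicates 1, 2 and 3 and 1028, 1569 and 375 in Aromhum replicates 1, 2 and 3. Few barcodes lay near the limits: 7 members had under 1500 UMIs, 6 barcodes of the block with the marker pattern fell short of 1000 UMIs, 19 members were over 8% mitochondrial UMIs and 20 barcodes with the pattern were over 10%. Members were deep cells, with a median of 10456 UMIs against 9346 in the other 12003 barcodes of the block, and 62.4% of them had over 2500 genes. Scrublet, a doublet caller, marked 55 members (1.49%), but marked none of the 6765 barcodes of WT replicate 3. The reason was not tested, so that result is not read as an absence of doublets in this mouse. A total of 50 members carried a barcode sequence also seen in another library, and 1 such sequence was shared between members.

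By their other genes the members were fibroblasts and not epidermal cells. Dcn, a proteoglycan of collagen fibrils, was at 14283 ± 1352 CPM (SD, n = 6 mice), Col1a2 at 7033 ± 4125 CPM, and Pdgfra, the receptor that marks fibroblasts of muscle, at 177 ± 45 CPM with a UMI in 69.7% of members. Only 11 of 20 keratinocyte genes were in the table, and 10 of these were under 10 CPM in members: Krt14 was at 0.418 CPM, Lor at 0.426 CPM, Epcam at 0.476 CPM and Trp63 at 0.0366 CPM. The summed level of the 11 genes was 33.7 to 38.6 CPM per mouse, nearly all of it Krt10 (29.9 CPM), against 655 to 2161 CPM in mesothelial barcodes. Mesothelial cells line body cavities and carry Dmkn and Sbsn as well, but their 14 markers summed to 25.3 to 61.5 CPM in members against 8132 to 13325 CPM in mesothelial barcodes. Part of this contrast was set by the choice of cells, since members had no Upk3b UMI and mesothelial barcodes were taken by Upk3b, Msln and Lrrn4. Upk1b, which chose neither group, was at 0.326 CPM in members and 640 CPM in mesothelial barcodes.

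The naming genes had large and uneven differences between members and other cells, given here as a description because the cells were chosen on the first 3. Other cells were the remaining barcodes of the block, other fibroblasts (4526 barcodes outside the block with a Pdgfra UMI, at least 10 collagen and Dcn UMIs and none of the mesothelial, endothelial, immune and muscle stem cell genes Upk3b, Pecam1, Cdh5, Ptprc, Pax7 and Myod1), 2556 mesothelial and 16620 endothelial barcodes. Dmkn was at 1526, 699 and 1156 CPM in members of WT replicates 1 to 3 and at 1441, 1704 and 654 CPM in those of Aromhum, against 10.4 ± 10.1 CPM (SD, n = 6) in the remaining barcodes of the block and 803 ± 379 CPM in mesothelial barcodes. Sbsn was at 1378, 910 and 1279 CPM in WT and 1074, 1179 and 831 CPM in Aromhum members, with 40.8 ± 25.7 CPM in the rest of the block and 554 ± 88.7 CPM in mesothelial barcodes. Both genes were therefore shared with the mesothelium. Krtdap was not: its 451, 439 and 560 CPM in WT and 97.1, 205 and 349 CPM in Aromhum members stood against 4.96 ± 1.85 CPM in the rest of the block and 2.38 ± 2.40 CPM in mesothelial barcodes. Every WT mouse was above every Aromhum mouse for Krtdap, an order given as a description because the gene chose the cells.

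Akr1c18, a hydroxysteroid dehydrogenase that inactivates progesterone, had the highest ratio to other fibroblasts outside the trio, among genes at 50 CPM or more in members of every mouse. It was at 157, 139 and 219 CPM in WT and 144, 147 and 178 CPM in Aromhum members, and at 3.12 ± 2.27 CPM in the rest of the block and 2.33 ± 1.99 CPM in other fibroblasts. A UMI of it was seen in 35.8% of members, against 1.48% of the rest of the block and 0.427% of endothelial barcodes, whose median depth was 5961.5 UMIs, and thinning every barcode to 1000 UMIs gave 12.2%, 0.300% and 0.0782%. Efemp1, a fibulin of elastic fibres, was at 1000 ± 104 CPM in members, 179 ± 36.6 CPM in the rest of the block, 68.5 ± 22.5 CPM in other fibroblasts and 892 ± 487 CPM in mesothelial barcodes. Both genes varied little among the 6 mice. Krt23, an acidic keratin, did not: it was at 123, 0 and 35.8 CPM in WT and 256, 412 and 28.2 CPM in Aromhum members. WT replicate 2 had no Krt23 UMI in 169 members, which allows up to 1.53 CPM by a count of 0 (counting error only). Krt23 thus named the cells of Aromhum replicates 1 and 2 and of WT replicate 1 more than those of the other mice.

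**Figure D1:**
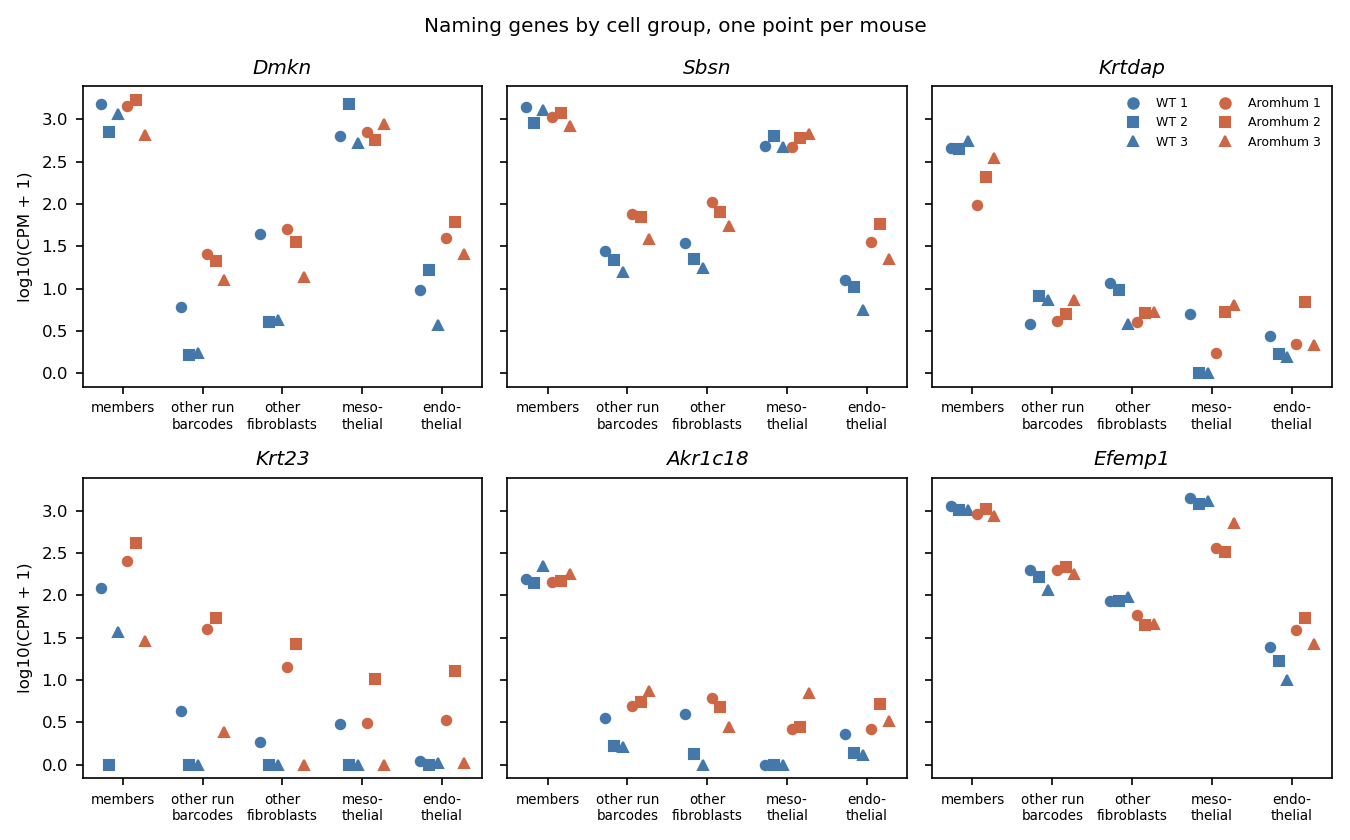
Level of the 6 naming genes in members and in 4 other cell groups, as log10 of CPM plus 1, with 1 point per mouse (blue WT, orange Aromhum, shape the replicate; other run barcodes are the rest of the eighth block). Dmkn, Sbsn and Efemp1 are high in members and in mesothelial barcodes, Krtdap and Akr1c18 are far higher in members than in the other 4 groups, and Krt23 ranges from 0 to 412 CPM among the mice.

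All 3 trio genes had a UMI in 1926 members (52.1%), Dmkn and Sbsn without Krtdap in 1437 (38.9%), Sbsn and Krtdap without Dmkn in 277 (7.49%) and Dmkn and Krtdap without Sbsn in 57 (1.54%). Members without Krtdap were common in Aromhum replicates 1 and 2 (54.7% and 45.3%) and less so in Aromhum replicate 3 (17.3%) and in WT (17.3%, 8.28% and 8.11%). The pattern without Dmkn was most common in WT replicate 2 (33.1%) and Aromhum replicate 3 (21.9%). These shares depend on depth, and the median depth of members ran from 8737 to 13552 UMIs over the mice.

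Several genes that the rule did not use were higher in steps with the number of trio genes detected, given as a description. Over all barcodes of the block without Upk3b, split by 0, 1, 2 or 3 trio genes with a UMI (9289, 2610, 1771 and 1926 barcodes), Efemp1 was at 151, 261, 756 and 1242 CPM. Akr1c18 was at 1.47, 6.42, 71.9 and 241 CPM, and Pi16, a secreted protease inhibitor, at 790, 1404, 2484 and 3534 CPM. The order was the same in each of the 6 mice for Efemp1, Pi16, Dpp4, Wnt2 and Cd55. Krt23 did not rise at the last step (250 and 248 CPM). Aldh1a3 was lower at the first step in Aromhum replicates 1 (35.6 to 32.2 CPM) and 2 (33.8 to 29.9 CPM), as was Akr1c18 in WT replicate 2 (0.726 to 0.342 CPM). The median depth was 8881, 11302, 11517 and 9663.5 UMIs, higher over the first 3 steps and lower at the last, and its part in the steps was not tested. Barcodes with 1 trio gene were nearer to those with none than to members: Aldh1a3, which makes retinoic acid, was at 42.3, 45.3, 123 and 366 CPM, and Wnt2, a Wnt ligand, at 20.7, 46.1, 135 and 199 CPM. Barcodes that met the rule with 2 genes, the lower edge of it, were between.

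**Figure D2:**
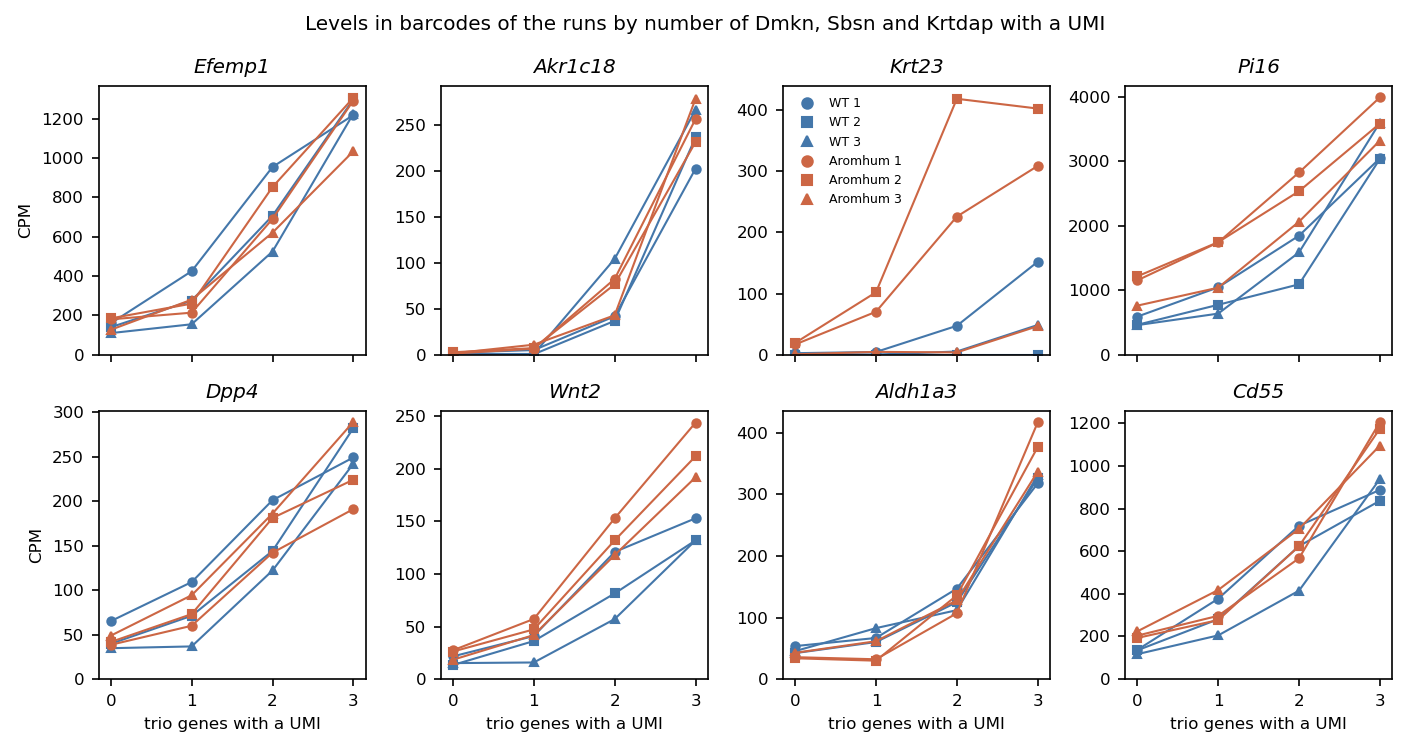
CPM of 8 genes in barcodes of the eighth block with 0, 1, 2 or 3 of Dmkn, Sbsn and Krtdap detected, 1 line per mouse. Efemp1, Pi16, Dpp4, Wnt2 and Cd55 increase at each step in all 6 mice, while Krt23 is high in Aromhum replicates 1 and 2.

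Against other fibroblasts of the same mice, 168 of 7837 genes at 10 CPM or more (2.14%) were at least 4-fold higher in members and 282 (3.60%) at least 4-fold lower, by mean CPM and as a description. Beyond the naming genes, and among genes at 50 CPM or more in members of every mouse, the highest ratios were those of Duoxa1, a maturation factor of dual oxidase (80.9 ± 21.9 against 3.58 ± 1.76 CPM, SD, n = 6), Efhd1, a calcium-binding protein (202 ± 62.1 against 9.83 ± 3.00 CPM), Aldh1a3 (246 ± 20.7 against 14.3 ± 5.26 CPM) and Opcml, a cell adhesion molecule (110 ± 30.7 against 6.64 ± 3.78 CPM). Cmah (118 against 8.44 CPM), Ptgs1, the constitutive cyclooxygenase (67.8 against 6.41 CPM), Pcsk6, a proprotein convertase (227 against 23.9 CPM), Dpp4 (211 against 22.3 CPM), Pcolce2, an enhancer of procollagen processing (760 against 87.4 CPM) and Cd55, a brake on complement (827 against 96.6 CPM) followed. All of them were higher in members in 6 of 6 mice, also against the rest of the block.

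Among genes at 50 CPM or more in other fibroblasts of every mouse, Pnoc, Moxd1 and Ren1 had the lowest ratios. Pnoc, the nociceptin precursor, was at 34.9 ± 27.3 CPM in members and 6800 ± 3659 CPM in other fibroblasts, Ren1, renin, at 178 ± 187 against 13424 ± 9839 CPM, and Moxd1, a monooxygenase, at 5.31 ± 2.17 against 437 ± 151 CPM. Endothelial barcodes held Pnoc at 395 CPM, Ren1 at 796 CPM and Moxd1 at 28.8 CPM, above the level in members. Nppc, C-type natriuretic peptide (28.7 against 997 CPM), Cpe (12.0 against 185 CPM), Mdk (11.3 against 172 CPM), Kcnma1 (7.04 against 80.2 CPM), Tagln (17.5 against 186 CPM) and Pdgfa (9.74 against 91.0 CPM) were also among the lowest, and of these only Kcnma1 (5.65 CPM) was lower in endothelial barcodes than in members. The part of free RNA in the levels in members was not tested. For Pnoc, Ren1, Moxd1, Nppc, Cpe and Mdk the low level was not particular to members. The rest of their block was also far below other fibroblasts for these genes. It held Pnoc at 79.0 CPM, Ren1 at 576 CPM, Moxd1 at 15.3 CPM, Nppc at 49.7 CPM, Cpe at 39.7 CPM and Mdk at 38.6 CPM. It was less far below for Kcnma1 (38.2 CPM), Tagln (61.2 CPM) and Pdgfa (29.6 CPM), with members lower still. Most other fibroblasts (73.0%) came from 1 further block of columns, so the ratios largely describe the cells of that block.

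The 15 genes listed for adventitial progenitors were all higher in members than in other fibroblasts and than in the rest of the block in 6 of 6 mice, beside 15.5% and 21.4% of the 7837 genes at 10 CPM or more in any of these cell groups. Igfbp6, which binds insulin-like growth factors, was the most abundant (5265 ± 1483 against 3178 CPM in other fibroblasts), followed by Clec3b (4557 ± 710 against 876 CPM), Pi16 (2813 ± 403 against 630 CPM) and Anxa3 (854 ± 182 against 142 CPM). Against mesothelial barcodes, 12 of the 15 were higher in members in all mice, as were 1933 of 7726 genes tested for genotype at 10 CPM or more. Dpp4 was lower by mean (211 against 329 CPM). The list summed to a median of 17742 CPM in members and 14651 CPM in mesothelial barcodes. The list was chosen with these cells known and gives no independent support for a name. By contrast, all 6 tenocyte genes at 10 CPM or more (of 7 listed) were lower in members than in the rest of the block in 6 of 6 mice (21.6% of genes were): Thbs4, a matrix protein of tendon, was at 147 ± 117 against 939 CPM and Fmod, a collagen-binding proteoglycan, at 27.3 ± 26.7 against 373 CPM. Of 16 dissociation-response genes, immediate early genes that rise during tissue digestion, 13 were lower in members than in the rest of the block in all mice and none higher, Fos, for example, at 516 to 1234 CPM against a mean of 1486 CPM. Of 21 Wnt and BMP genes at 10 CPM or more, 5 were higher (21.4% of genes were) and 7 lower (21.6% were) than in the rest of the block in all mice. Wnt2 (146 ± 32.0 against 26.4 CPM) was among the higher ones. Among 7 immune genes Cd3e, a T cell receptor subunit, was also higher in 6 of 6 mice (19.0 ± 12.1 against 5.15 CPM) with a UMI in 10.9% of members, 2.45% of the rest of the block, 0.319% of endothelial and 12.3% of mesothelial barcodes, while Ptprc, which all leukocytes carry, was at 0.474 CPM.

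Members were a larger share of the barcodes in Aromhum mice on average, but the groups overlapped. They were 5.22%, 2.29% and 1.64% of the barcodes within the limits in WT and 9.62%, 12.9% and 4.75% in Aromhum. The means were 3.05 ± 1.91% and 9.08 ± 4.08% (SD, n = 3), a difference of 6.03 percentage points (exact permutation test, 2-sided, p = 0.200; 3 against 3 mice cannot go below 0.1). WT replicate 1 was above Aromhum replicate 3. The share rests on genes that differed between genotypes outside members too. In the rest of the block Sbsn was at 26.6, 20.7 and 14.7 CPM in WT and 75.6, 69.1 and 38.0 CPM in Aromhum. Dmkn was at 5.09, 0.653 and 0.719 against 24.3, 20.1 and 11.7 CPM there, while Krtdap overlapped. How far this let more Aromhum barcodes meet the rule was not tested. Within the eighth block the shares were 16.3%, 8.96% and 9.63% in WT and 33.2%, 34.9% and 16.1% in Aromhum (exact permutation test, p = 0.200). As a share of members plus the other fibroblasts from outside the block, which is not a share of all fibroblasts since 74.8% of the other barcodes of the block also had a Pdgfra UMI, members were 51.4%, 39.7% and 31.9% in WT and 44.0%, 48.3% and 37.5% in Aromhum, a difference of 2.30 points (exact permutation test, p = 0.800). The last difference was smaller than the SD of either group. When every barcode was thinned to 1000 UMIs before the rule was applied, the difference in the first share was 2.70 points (exact permutation test, p = 0.200), since 1746 barcodes then met the rule. With all 3 trio genes required, the share of members plus other fibroblasts was 31.8 ± 9.63% in WT and 27.4 ± 4.29% in Aromhum (exact permutation test, p = 0.5), so its direction turned; it also turned without WT replicate 3 (-2.24 points) and without Aromhum replicate 2 (-0.203 points). Under the study's cell limits the same difference was 25.3 points, from 32.9 ± 19.3% in WT and 58.3 ± 21.6% in Aromhum (exact permutation test, p = 0.200).

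**Figure D3:**
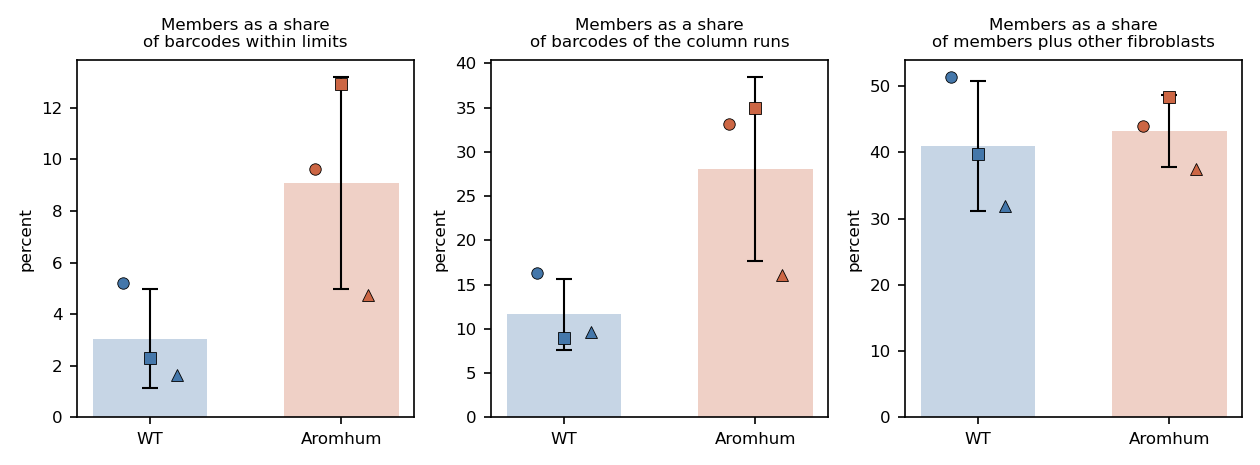
Members as a percentage of barcodes within the limits, of barcodes of the eighth block, and of members plus other fibroblasts. Bars are means with SD of 3 mice and points are mice; WT replicate 1 overlaps Aromhum replicate 3 in all 3 panels.

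The transgene marked the Aromhum libraries. CYP19A1 had no UMI in any WT barcode and 770, 797 and 787 UMIs in Aromhum replicates 1, 2 and 3, of which 76, 81 and 40 were in members. In members it was at 5.57, 5.37 and 7.48 CPM in Aromhum and 0 in WT, where a count of 0 over the 3 mice allows up to 0.381 CPM, so it was at least 16.1-fold higher. Its UMIs were not particular to members, of which 5.93%, 4.46% and 7.20% had one against 5.51%, 5.20% and 6.99% of the other barcodes of the same mice.

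Genotype differences within members were read from UMI sums per mouse (1395464 to 15088615 UMIs), tested by the quasi-likelihood method of edgeR; every adjusted p below is by Benjamini-Hochberg over the 10554 genes tested. In Aromhum members 45 genes rose (0.426% of those tested) and 43 fell (0.407%) at an adjusted p under 0.05, 88 in all (0.834%), and 2031 genes had an unadjusted p under 0.05. The mice of the 2 groups did not overlap for any of the 88. Over all genes tested 8.92% had every Aromhum mouse above WT and 11.4% every one below. The 88 were called on these same mice, so their lack of overlap gives no further support. The count depended on single mice and on the cell limits: it was 2 without WT replicate 1, 3 without WT replicate 2, and 0 without WT replicate 3 or without Aromhum replicate 1 or 2, while it was 1531 without Aromhum replicate 3. Under the study's own cell limits (200 to 2500 genes and at most 5% mitochondrial UMIs) it was 0 of 6158 genes tested by edgeR, with 438 at an unadjusted p under 0.05. The mix of barcodes among members differed between mice as well. Members without Krtdap were 17.3%, 8.28% and 8.11% in WT and 54.7%, 45.3% and 17.3% in Aromhum, and the part of this mix in the calls was not tested. By the correlation of log CPM over genes, Aromhum replicates 1 and 2 were the closest pair (0.988). Aromhum replicate 3 was at 0.956 and 0.955 with them and at 0.960 with WT replicate 1. The WT mice were at 0.957, 0.960 and 0.950 among themselves. Aromhum replicates 1 and 2 also had the most UMIs in members (13642706 and 15088615), and depth was not held equal here.

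Mfap4, Thbs2, Spon1, Fbln7, Col16a1 and Adam12 were among the 15 genes with the lowest p that rose. Mfap4, a microfibril-associated glycoprotein of elastic fibres, was at 92.9, 84.2 and 114 CPM in WT and 416, 287 and 373 CPM in Aromhum members (log2 fold change 1.95, SE 0.19, adjusted p = 0.0339). Thbs2, a matricellular thrombospondin, was at 124, 118 and 107 against 537, 536 and 280 CPM (log2 fold change 2.04, SE 0.30, adjusted p = 0.0339). Spon1, a secreted matrix-bound protein, was at 11.1, 10.2 and 14.3 against 190, 114 and 76.6 CPM (log2 fold change 3.53, SE 0.39, adjusted p = 0.0339). Each of the 3 was higher in every Aromhum mouse by more than the spread of its group. Fbln7, a fibulin, was at 12.6, 15.8 and 12.9 against 103, 80.1 and 46.0 CPM (log2 fold change 2.57, SE 0.34), Col16a1, a fibril-associated collagen, at 53.9, 65.8 and 58.0 against 129, 112 and 108 CPM (log2 fold change 1.05, SE 0.15), and Adam12, a metalloprotease, at 0.665, 1.02 and 1.43 against 25.1, 19.0 and 9.72 CPM (log2 fold change 4.38, SE 0.59), each with an adjusted p of 0.0339.

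By list, 3 of 15 fibrillar and basement membrane collagens rose (0.426% of all genes tested did) and none fell (0.407% did). They were Col3a1 (5050 ± 949 CPM in WT and 15989 ± 4822 CPM in Aromhum members, n = 3, adjusted p = 0.0490), Col5a2 (475 ± 61.9 and 981 ± 178 CPM, adjusted p = 0.0476) and Col12a1 (105 ± 26.4 and 234 ± 33.3 CPM, adjusted p = 0.0366). The list's median log2 fold change was 1.13 beside -0.01 over all genes tested, and 7 of 15 had every Aromhum mouse above WT (8.92% of all genes tested did). Col1a1, the main collagen of scar and tendon, was at 2149, 2121 and 3071 against 11982, 7248 and 4582 CPM but did not pass the threshold (adjusted p = 0.0688). Of 19 elastic fibre genes tested, Mfap4, Eln and Fbn2 rose (0.426% of all genes tested did) and none fell (0.407% did). In this list 8 genes had every Aromhum mouse above WT (8.92% did) and 1 every one below (11.4% did). Eln, elastin, was at 114, 206 and 184 against 479, 289 and 501 CPM (log2 fold change 1.40, SE 0.24, adjusted p = 0.0467). Fbn2, the fibrillin of developing tissue, was at 0.665, 0.510 and 0 against 23.6, 24.8 and 8.04 CPM (log2 fold change 5.29, SE 0.78, adjusted p = 0.0339). Efemp1, of the same list, was at 1144, 1009 and 1023 against 906, 1061 and 858 CPM (adjusted p = 0.839).

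Of 13 profibrotic genes tested, 3 rose (0.426% of all genes tested did), 1 fell (0.407% did) and 9 had every Aromhum mouse above WT (8.92% did), with a median log2 fold change of 1.35. Beside Spon1 these were Timp1, an inhibitor of matrix metalloproteases, at 130, 101 and 99.6 against 1468, 866 and 354 CPM (log2 fold change 3.12, SE 0.50, adjusted p = 0.0383), and Cthrc1, a secreted protein of matrix-producing fibroblasts, at 15.5, 21.4 and 27.2 against 676, 524 and 87.1 CPM (log2 fold change 4.5, SE 0.74, adjusted p = 0.0392). In both genes Aromhum replicate 3 lay nearest to WT. Neither rise was particular to members. In other fibroblasts Timp1 was at 156, 144 and 131 against 1646, 1118 and 450 CPM, and Cthrc1 at 12.7, 28.1 and 5.29 against 150, 107 and 47.7 CPM. Tgfbi, a matrix protein named for its induction by TGF-beta, fell, from 83.6, 127 and 79.5 CPM to 14.1, 11.1 and 33.5 CPM (log2 fold change -2.32, SE 0.34, adjusted p = 0.0339). Among 21 matrix proteases and inhibitors Adam12 and Timp1 rose (0.426% of all genes tested did) and none fell (0.407% did).

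Cxcl14, a chemokine of fibroblasts and epithelia, rose: it was at 15.1, 7.65 and 3.58 against 539, 425 and 147 CPM (log2 fold change 5.30, SE 0.64, adjusted p = 0.0339). Il11, a cytokine that acts on fibroblasts, was at 14.2 ± 2.45 against 58.3 ± 19.4 CPM (n = 3, adjusted p = 0.0339). These were the only 2 of 21 chemokine and cytokine genes tested that rose (0.426% of all genes tested did), and none fell (0.407% did). Of 22 Wnt and BMP genes tested, 1 rose (0.426% of all genes tested did) and 1 fell (0.407% did). Sfrp4, a secreted Wnt antagonist, rose from 647 ± 84.7 to 1205 ± 93.9 CPM (n = 3, adjusted p = 0.0456). Wnt5a, a ligand of non-canonical Wnt signalling, fell from 27.7, 52.6 and 27.2 CPM to 7.55, 7.36 and 13.5 CPM (log2 fold change -1.90, SE 0.28, adjusted p = 0.0339).

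The other genes among the 15 with the lowest p that rose were Htra4, a serine protease (1.98 against 11.7 CPM), Prune2 (3.58 against 34.5 CPM), Cyp4b1, a cytochrome P450 (5.65 against 59.3 CPM), Chpf2, of chondroitin sulfate synthesis (18.0 against 36.7 CPM), Tubb2b, a tubulin (55.8 against 105 CPM), Ankrd46 (9.04 against 25.3 CPM) and Hhipl1 (29.6 against 59.9 CPM), all at an adjusted p of 0.0339. Of the 45 genes that rose, 44 had a higher mean in members than in endothelial barcodes of the same Aromhum mice, and 41 in each of the 3 mice, shares that were not counted over all genes tested. Slpi, named after its values were seen, was the exception, at 51.8 CPM in Aromhum members and 627 CPM in endothelial barcodes. Endothelial barcodes of Aromhum mice also had a higher mean than those of WT for the 15 genes except Cyp4b1 and Tubb2b. Htra4 was at 2.13 CPM in WT and 10.1 CPM in Aromhum endothelial barcodes, close to members. Spon1 was at 7.07 and 34.3 CPM there and Thbs2 at 19.2 and 81.4 CPM. Cyp4b1 was at 68.9 and 51.5 CPM and Tubb2b at 36.8 and 35.3 CPM. The part of free RNA in these rises was not tested.

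**Figure D4:**
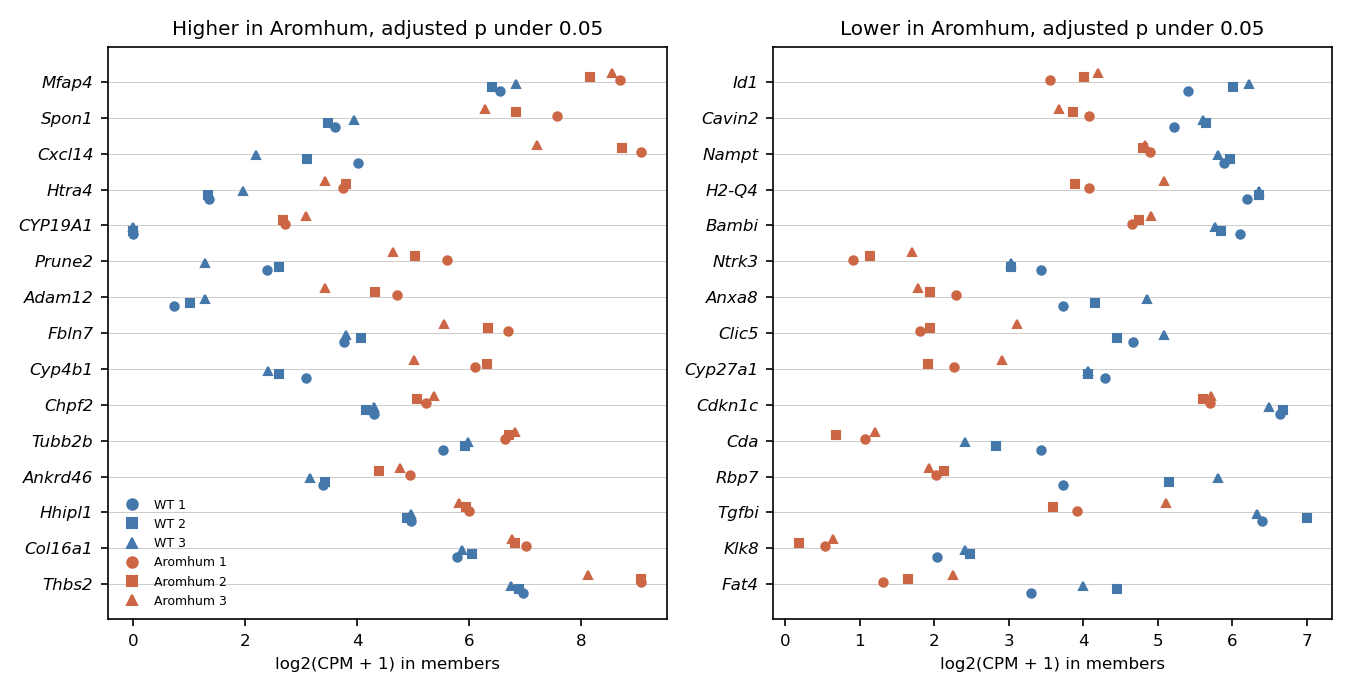
Level in members of the 15 genes with the lowest p that rose (left) and that fell (right) in Aromhum, as log2 of CPM plus 1, with 1 point per mouse. The 30 genes were chosen among called genes whose WT (blue) and Aromhum (orange) mice do not overlap, so the separation was set by the choice.

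The genes that fell were set beside their level in endothelial cells. For 27 of the 43, endothelial barcodes of WT mice had a higher mean level than members. That share was not counted over all genes tested, so whether it is unusual is not known. The summed level of 6 endothelial markers in members was itself 72.5 to 296 CPM in WT and 33.3 to 63.3 CPM in Aromhum. Cavin2, a caveolar protein, was at 36.2, 49 and 48 against 15.9, 13.5 and 11.8 CPM in members and at 805 CPM in WT endothelial barcodes. Id1, a target of BMP signalling, was at 41.5, 63.8 and 73.8 against 10.7, 15.1 and 17.4 CPM in members and 1061 CPM in WT endothelial barcodes. Rbp7 (34.0 against 3.09 CPM), Clic5 (26.1 against 4.34 CPM), H2-Q4 (78.1 against 20.9 CPM), Nampt (58.5 against 27.8 CPM), Bambi (59.4 against 26.3 CPM, a direction that turned under the study's cell limits), Cdkn1c (96.6 against 50.2 CPM), Klk8 (4.00 against 0.378 CPM) and Fat4 (14.9 against 2.44 CPM), by their means in WT and Aromhum members, were also higher in WT endothelial barcodes. Cda (6.73 against 1.00 CPM) and Perp of the keratinocyte list (5.32 against 1.10 CPM, adjusted p = 0.0467) were higher there by little. WT endothelial barcodes held Cda at 7.74 CPM and Perp at 5.88 CPM. The part of endothelial RNA in these differences was not tested.

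The other 16 were higher in WT members than in WT endothelial barcodes in each mouse. Besides Tgfbi and Wnt5a they included Ntrk3, a neurotrophin receptor (9.76, 7.14 and 7.17 against 0.880, 1.19 and 2.24 CPM), Cyp27a1, a sterol hydroxylase (18.6, 15.8 and 15.8 against 3.81, 2.78 and 6.54 CPM) and Anxa8, an annexin (12.2, 16.8 and 27.9 against 3.88, 2.85 and 2.43 CPM), each at an adjusted p of 0.0339. Comp, a tendon and cartilage matrix protein, fell from 30.8, 183 and 153 CPM to 6.67, 2.98 and 15 CPM (log2 fold change -3.92, SE 0.69, adjusted p = 0.0470), the only one of 4 tenocyte genes tested that did. Lypd2 of the perineurial list fell as well, from 3.1, 10.7 and 5.73 CPM to 0.586, 0.398 and 1.12 CPM (adjusted p = 0.0445).

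Several acute phase genes were high in members of Aromhum replicates 1 and 2 and low in those of replicate 3, by value. Saa3, a serum amyloid, was at 0.665, 1.53 and 0 CPM in WT members and at 1102, 932 and 0.187 CPM in Aromhum members, with a UMI in 36.8%, 25% and 0.267% of them, and did not pass the filter on low counts, which asks for expression in 3 mice. The pattern was not particular to members: in Aromhum replicates 1, 2 and 3 a Saa3 UMI was seen in 22.0%, 20.8% and 1.69% of the rest of the block, 94.7%, 90.5% and 7.15% of mesothelial barcodes and 7.69%, 9.4% and 1.20% of endothelial barcodes, whose median depth was 4983 to 7372 UMIs beside 8737 to 13552 UMIs in members. Lcn2, lipocalin 2, was at 3.77, 0.510 and 0.717 against 258, 102 and 1.68 CPM (adjusted p = 0.105), and Hp, haptoglobin, at 3.77, 0 and 0 against 99.0, 191 and 0.374 CPM (adjusted p = 0.125). Replicate 3 was within the range of WT for all 3 genes. Mmp3, a stromelysin, was at 51.9, 18.4 and 3.58 against 665, 863 and 44.3 CPM (adjusted p = 0.0940). Others were graded: C4b, a complement component, was at 240, 28.1 and 76.0 against 1585, 1825 and 318 CPM (adjusted p = 0.0940), Lbp, which binds lipopolysaccharide, at 650, 381 and 422 against 3208, 3255 and 861 CPM (adjusted p = 0.0688), and Serpina3n, a protease inhibitor, at 189, 142 and 218 against 1481, 1368 and 353 CPM (adjusted p = 0.0571). None of 17 complement and acute phase genes tested passed the threshold, at a median log2 fold change of 1.18. Without Aromhum replicate 3, the mouse whose values were low, 14 of 18 passed, all higher, and with any other mouse left out none did. That mouse was picked by these same values, so the count gives no support. Over all 10634 genes tested without it, 863 were called higher and 668 lower. Leaving out any other mouse gave 0 to 3 calls over all genes. The log2 fold changes of C4b, Lbp, Serpina3n, Lcn2 and Hp were 3.48, 2.43, 2.65, 5.83 and 5.70.

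**Figure D5:**
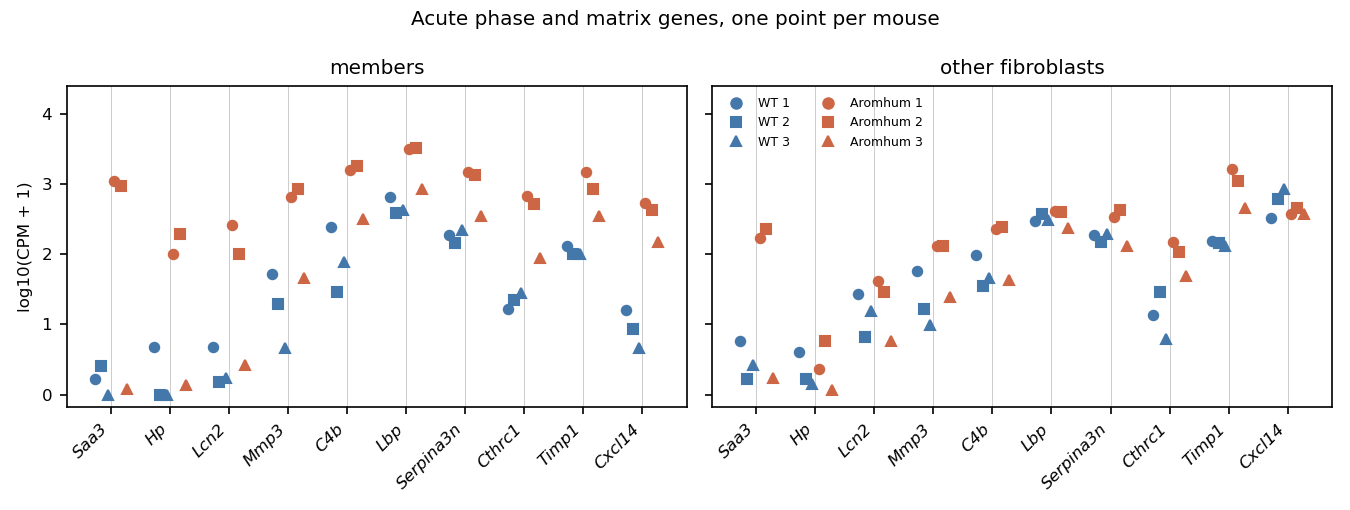
Acute phase, matrix and chemokine genes in members (left) and other fibroblasts (right), as log10 of CPM plus 1, with 1 point per mouse. In members Saa3, Hp, Lcn2 and Mmp3 are high in Aromhum replicates 1 and 2, while Timp1, Cthrc1 and Cxcl14 are above WT in all 3 Aromhum mice.

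Esr1, estrogen receptor alpha, did not pass the test. It was at 23.7, 42.9 and 28.7 CPM in WT and 18.6, 19.9 and 22.6 CPM in Aromhum members (adjusted p = 0.176), against 154 CPM in other fibroblasts and 26.5 CPM in the rest of the block, close to the 26.1 CPM of members. Estrogen-responsive genes were low in WT members and higher in Aromhum replicates 1 and 2 by value: Pgr, the progesterone receptor, was at 0.444, 1.02 and 0 against 18.0, 23.5 and 1.87 CPM, and Greb1, an estrogen receptor target, at 1.11, 0.510 and 0.717 against 17.2, 18.1 and 3.74 CPM. Greb1 did not pass the threshold (adjusted p = 0.0647) and Pgr was below the filter. Endothelial barcodes of Aromhum mice held close levels, with Pgr at 11.0 CPM beside 14.5 CPM in members and Greb1 at 12.5 beside 13.0 CPM, by their means. None of 5 listed steroid receptors and estrogen targets tested and none of 9 listed steroid enzymes passed, Akr1c18 included (log2 fold change -0.07, SE 0.18, adjusted p = 0.890). Outside the list of steroid enzymes, CYP19A1 rose, as given above, and so did Cyp21a1, the steroid 21-hydroxylase, from 0 in all WT members to 13.3, 7.82 and 6.92 CPM in Aromhum members (adjusted p = 0.0339). Cyp21a1 was chosen after its values were seen, and its counts are uncertain where reads are shared with a near-identical pseudogene. Cyp7b1, a hydroxylase of oxysterols and steroids, was at 0.444, 1.02 and 0.717 against 40.8, 54.5 and 0.748 CPM and was likewise low in Aromhum replicate 3.

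None of the 15 adventitial progenitor genes passed the threshold, at a median log2 fold change of -0.24, with Pi16 at 2709, 2088 and 3022 against 3247, 3021 and 2789 CPM (adjusted p = 0.543). Of the 16 dissociation-response genes none passed either, although 6 had every Aromhum mouse below WT (11.4% of all genes did). Zfp36, which destabilises mRNA, was at 404, 512 and 458 against 248, 186 and 318 CPM (adjusted p = 0.0647) and Socs3, a brake on cytokine signalling, at 490, 416 and 378 against 145, 119 and 253 CPM (adjusted p = 0.0520). A difference in digestion response between the groups could not be told apart from genotype for these genes.

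The genotype difference in members was set against that in other fibroblasts of the same mice by a test of the interaction, with the mouse as a term, over 11686 genes. It was called for 364 genes (3.11%), 276 with a higher (2.36%) and 88 with a lower (0.753%) Aromhum effect in members. Leaving out 1 mouse gave 242, 96 and 55 calls without WT replicates 1, 2 and 3 and 111, 121 and 1029 calls without Aromhum replicates 1, 2 and 3. With the rest of the block in place of the other fibroblasts, a comparison added after seeing the data, 47 genes were called (0.361% of 13018). Fbln1, a fibulin of elastic fibres and basement membranes, was at 221, 235 and 208 CPM in WT and 523, 421 and 269 CPM in Aromhum members, but at 865, 698 and 601 and 241, 226 and 148 CPM in other fibroblasts (interaction log2 fold change 2.80, SE 0.16, adjusted p = 1.29e-04 by edgeR). The genotype difference in members alone did not pass for Fbln1 (log2 fold change 0.96, adjusted p = 0.111), and that in other fibroblasts alone was not tested. Ntrk3 went the other way, from a mean of 8.02 to 1.44 CPM in members and from 3.01, 3.68 and 2.85 to 8.34, 11.1 and 17.2 CPM in other fibroblasts (interaction log2 fold change -4.38, SE 0.34, adjusted p = 0.00104). Chl1, a neural adhesion molecule, was at 1.33, 3.06 and 0 against 112, 148 and 15.3 CPM in members and 5.15, 14.1 and 31.8 against 11.1, 11.1 and 2.28 CPM in other fibroblasts (interaction log2 fold change 6.55, SE 0.58, adjusted p = 0.00111). Against the rest of the block, where Chl1 was at 0.756, 0.297 and 0.360 CPM in WT and 32.9, 64.0 and 3.65 CPM in Aromhum, its interaction was 0.14 (SE 0.81, adjusted p = 0.997 by edgeR), so the call was lost there, while Fbln1 (1.21, SE 0.20, adjusted p = 0.0294) and Ntrk3 (-2.31, SE 0.42, adjusted p = 0.0492) passed. The make-up of the other fibroblasts moved with genotype too: the block that supplied most of them held 58.0%, 36.6% and 29.1% of them in WT and 80.9%, 82.5% and 72.3% in Aromhum, and its part in the interaction was not tested.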

How the data were processed

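Lower abdominal muscle of 3 WT and 3 Aromhum mice was digested and sequenced by 10x 3' single-cell RNA-seq. The authors made the deposited counts, whole UMI counts per gene and barcode in 1 table of 16494 genes, with Cell Ranger 3.0.2 on mouse genome mm10 with human CYP19A1 added. The table holds no cell type names. The study processed 1 WT and 1 Aromhum littermate per day on 3 days, but the labels do not say whether sample numbers mark days.

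The members and gene lists were chosen with earlier results of these data known. UMIs were summed per mouse over members, other barcodes of the block, other fibroblasts, mesothelial barcodes (2 of Upk3b, Msln and Lrrn4) and endothelial barcodes (2 of Pecam1, Cdh5 and Cldn5), each within the limits of 1000 UMIs and 10% mitochondrial UMIs, and scaled to CPM. Genotype and interaction were tested with edgeR 4.0.16 in R 4.3.3 (filterByExpr, TMM, quasi-likelihood, Benjamini-Hochberg, threshold 0.05), the SE being the log2 fold change over the root of F. Shares were compared by an exact permutation test over mice (scipy 1.17.1). Doublets were called with Scrublet in scanpy 1.11.5 and kept. Named genes were the 15 per direction with the lowest p among called, non-overlapping genes, the 15 highest and 10 lowest ratios to other fibroblasts among genes at 50 CPM or more in the higher group in every mouse, the 10 lowest interaction p, the naming genes and 2 to 4 per list; Gm and Rp symbols and genes of chromosome Y were left out of the ranked choices. Alternatives were DESeq2 1.42.0, RLE size factors, no filter, the replicate number as a block, the study's cell limits (200 to 2500 genes, 5% mitochondrial UMIs), all 3 trio genes, thinning to 1000 UMIs, doublets left out, all blocks, and each mouse left out. On simulated counts the genotype fit was tested for recovery of changed genes.

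Members had 1395464 to 15088615 UMIs per mouse, which limits genes under a few CPM most in WT replicates 2 and 3. Sequences came from RefSeq (GRCm38.p6) and positions from GENCODE vM21; all 6 naming genes were matched. Results for some items are not reported here.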

Additional observations from a re-analysis of the deposited data

Results flagged for a closer look

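The genotype effect differed between members and other fibroblasts for 364 genes by the interaction test (edgeR, adjusted p under 0.05), which is what marked the results here. The 10 genes with the lowest p had interaction log2 fold changes of 2.80 for Fbln1, -4.38 for Ntrk3, 1.84 for Itgbl1, 5.36 for Lyz2, -7.85 for Hbb-bt, 2.68 for Kng2, 6.55 for Chl1, 2.80 for Penk, 2.25 for Svep1 and 2.11 for Bmper. With the rest of the block as the second group the call was lost for 5 of the 10: Itgbl1 (0.33, adjusted p = 0.648), Lyz2 (-0.06, adjusted p = 1.00), Hbb-bt (-4.73, adjusted p = 0.217), Svep1 (1.21, adjusted p = 0.109) and Chl1 (0.14, adjusted p = 0.997).

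Itgbl1 was at 70.5, 84.7 and 65.2 CPM in WT and 71.1, 82.2 and 104 CPM in Aromhum members, and at 270, 219 and 223 and 71.6, 89.5 and 95.4 CPM in other fibroblasts. Penk, the enkephalin precursor, was at 116, 93.4 and 163 and 191, 112 and 108 CPM in members and at 131, 186 and 168 and 35.5, 22.6 and 26.7 CPM in other fibroblasts. For both genes the groups of mice overlapped in members and not in other fibroblasts. Kng2, a kininogen, was at 8.87, 7.65 and 2.87 and 123, 63.2 and 33.3 CPM in members and at 39.3, 27.1 and 19.1 and 77.9, 51.4 and 27.7 CPM in other fibroblasts. Bmper, a BMP-binding protein, was at 13.3, 9.19 and 11.5 and 56.9, 52.9 and 30.5 CPM in members and at 59.9, 41.2 and 51.3 and 60.0, 57.9 and 40.8 CPM in other fibroblasts. Svep1 was at 37.3, 43.4 and 23.6 and 120, 135 and 63.7 CPM in members and at 61.2, 84.4 and 51.3 and 48.9, 51.8 and 33.9 CPM in other fibroblasts. Lyz2, a macrophage gene, was at 2.15 to 22.3 CPM in members and at 128, 198 and 731 and 51.2, 29.5 and 7.40 CPM in other fibroblasts. Hbb-bt, a haemoglobin chain, was at 90.7, 0.510 and 90.3 CPM in WT members and at most 1.03 CPM in Aromhum members. In other fibroblasts it was at 3.22, 0.670 and 0.407 and 8.65, 1.92 and 0.325 CPM, and the rest of the block of WT replicate 1 held 40.6 CPM. No sample was tested as an outlier, since the groups held 3 mice.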

How the results depend on the processing

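The share of barcodes differed by 6.03 points, kept its direction under all alternatives run (4.14 to 8.19 points without 1 mouse, 2.33 with all 3 trio genes, 2.70 after thinning). The share of members plus other fibroblasts from outside the block (2.30 points) turned to -4.43 with all 3 trio genes, and to -2.24 without WT replicate 3 and -0.203 without Aromhum replicate 2 (-2.24 to 7.50 over the mice); under the study's cell limits it was 25.3 points (exact permutation test, p = 0.200). Members numbered 1269 under the study's limits, 1926 with all 3 trio genes and 1746 after thinning. The 88 genotype calls became 509 with DESeq2, 220 without the filter, 67 with doublets left out (66 of the 88 among them), 120 with all 3 trio genes (64 of the 88), 119 over all blocks (59 of the 88), 0 under the study's limits (438 genes with an unadjusted p under 0.05 by edgeR, 6158 tested), and 0 to 1531 without 1 mouse. The 364 interaction calls became 3 under the study's limits, 55 to 1029 without 1 mouse, and 47 with the other barcodes of the block as the second group, an alternative chosen after seeing the data. Genes at 50 CPM or more that were at least 4-fold above other fibroblasts numbered 68, and 103 after thinning. Same-numbered WT and Aromhum mice deviated together with correlations of 0.18, -0.15 and 0.08, so the numbers were not taken to pair the mice; with the replicate number as a block 198 genes were called, 75 of the 88 among them. Signs that turned were those of Akr1c18 (0.08 under the study's limits, 0.15 with all 3 trio genes, 0.14 without WT replicate 3, and -0.23 to 0.14 over the mice left out), Bambi (0.40 under the study's limits), Efemp1 (0.01 without WT replicate 1, 0.04 without Aromhum replicate 3, and -0.24 to 0.04 over the mice left out) and Esr1 (0.36 over all blocks) for genotype, and Chl1 (-2.38 under the study's limits) and Lyz2 (-0.06 with the other barcodes of the block) for the interaction. Of 890 values of named genes under alternatives, 589 kept direction and side of the threshold, 259 lost the threshold, 33 gained it and 9 turned. The causes were not tested. Depth limits genes under a few CPM, and 3 mice per group limit every test.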

Other observations

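Aldh1a3, which makes retinoic acid, was at 246 ± 20.7 CPM (SD, n = 6) against 45.5 CPM in the rest of the block, 14.3 CPM in other fibroblasts and 4.00 CPM in mesothelial barcodes, and was the only 1 of 10 retinoid genes at 10 CPM or more that was higher in members than in the rest of the block in 6 of 6 mice (background 21.4%), while 6 were lower in all mice (background 21.6%), among them the retinol carrier Rbp4 (54.1 ± 22.7 against 115 CPM). It did not differ past the threshold between genotypes (log2 fold change -0.04, SE 0.15, adjusted p = 0.928 by edgeR).

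Of 21 Wnt and BMP genes at 10 CPM or more, 5 were higher in members in all mice (background 21.4%) and 7 lower (background 21.6%). These counts are against the other barcodes of the block. Bmp7 and Wnt10b, 2 further ligands of the list, were higher in members by value. Bmp7 had a UMI in 25.6% of members, 1.63% of the other barcodes of the block and 0.415% of endothelial barcodes (3.60%, 0.192% and 0.0602% when thinned to 1000 UMIs). Wnt10b was at 31.7, 31.1 and 46.6 CPM in WT and 12.8, 13.9 and 36.4 CPM in Aromhum members, against 2.61 CPM in the other barcodes of the block and 0.685 CPM in other fibroblasts. Aromhum replicate 3 lay with WT for this gene too.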
